A study of Macaca mulatta with 2 samples.

Results

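The 7 TNF superfamily ligands LTB, CD40LG, TNF, FASLG, TNFSF14, TNFSF10 and TNFSF8 were taken by name from the 35432 genes counted in circulating CD4+CD8+ double positive (DP) T cells. Their expression was examined in the 7311 cells with a UMI of CD3E, a chain of the T cell receptor complex, out of 7601 cells that passed the filters. A UMI (unique molecular identifier) marks 1 captured RNA molecule. All cells came from the blood of 1 untreated rhesus macaque, a healthy male of 6 years. CD4+ cells were taken from blood mononuclear cells with releasable magnetic beads, and CD8+ cells were then taken from these. RNA and antibody tags against CD4 and CD8 were read from the same droplets, so that both share 1 set of 7923 barcodes. A CD3E+ cell had a median of 3655 UMIs (range 509 to 23511). Because all cells came from 1 animal, no test was made, and every interval below is a 95% interval that covers counting error only.

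Ligands of the TNF superfamily are proteins of the cell membrane, some of them also released, that assemble as trimers and cluster their receptors on another cell. LTB, lymphotoxin beta, pairs with LTA and acts on LTBR, a receptor of stromal and myeloid cells that shapes lymphoid organs. CD40LG is the helper signal that T cells give to CD40 on B cells and dendritic cells, and TNF is an inflammatory cytokine. FASLG and TNFSF10 (TRAIL) bind death receptors, TNFSF14 (LIGHT) binds TNFRSF14 and LTBR, and TNFSF8 is the ligand of TNFRSF8 (CD30).

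All 7 genes were matched by symbol to the RefSeq annotation of Mmul_10 as protein coding. LTB lies on the plus strand at chr4:137930251-137932324. TNF (chr4:137934540-137937146) and LTA (chr4:137938564-137941104) lie beside it on the minus strand, with 2215 bases between LTB and TNF and 1417 between TNF and LTA. CD40LG lies at chrX:132757121-132768518, FASLG at chr1:29964034-29970894, TNFSF14 at chr19:6582253-6587833, TNFSF10 at chr2:77430803-77448530 and TNFSF8 at chr15:27891919-27930896. The 250 bases before the RefSeq start of LTB (chr4:137930001-137930250, plus strand) and of CD40LG (chrX:132756871-132757120, plus strand) are shown because these 2 most abundant ligands differed in opposite directions in GZMB+ and in CCR7+ cells. Capitals mark the NFAT core GGAAA or its reverse TTTCC, and in LTB also the kappaB match GGAAAGTCCC.
LTB: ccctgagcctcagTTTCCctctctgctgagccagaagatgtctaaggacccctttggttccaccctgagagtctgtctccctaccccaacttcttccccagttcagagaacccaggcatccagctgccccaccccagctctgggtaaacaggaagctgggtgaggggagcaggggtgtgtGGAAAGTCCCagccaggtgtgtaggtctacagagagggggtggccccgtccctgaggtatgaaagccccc
CD40LG: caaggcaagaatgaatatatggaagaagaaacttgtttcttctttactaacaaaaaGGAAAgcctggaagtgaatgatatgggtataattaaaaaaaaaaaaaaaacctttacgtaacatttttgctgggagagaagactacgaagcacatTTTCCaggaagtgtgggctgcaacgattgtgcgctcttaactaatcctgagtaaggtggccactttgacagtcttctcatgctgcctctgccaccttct
Both strands of 20787 promoter windows of the same length were searched. The core GGAAA was present in 53.0% of them, the kappaB letters (GGGA, any base, TTTCC) in 0.303%, the AP-1 letters TGANTCA in 5.15% and the RUNX letters ACCACA in 11.2%. The LTB window held the kappaB letters on the minus strand 70 bases before the start, where they overlap 1 of its 2 NFAT cores, the other lying 237 bases before the start. In the CD40LG window the cores lay 194 and 99 bases before the start, and no kappaB match was present. Neither window held the AP-1 or RUNX letters. These are matches of letters and not measured binding sites.

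LTB was by far the most abundant of the 7 ligands. Summed over the CD3E+ cells, it had 29020 UMIs, or 964 CPM (UMIs per 1000000 UMIs of the same cells, 95% Poisson interval 953 to 975), and 70.4% of the cells had a UMI (binomial interval 69.3 to 71.4). Its median was 3 UMIs per cell, with quartiles of 0 and 6 and a highest value of 45. CD40LG followed at 52.7 CPM (50.2 to 55.4) in 17.8% of cells, TNFSF8 at 33.7 CPM (31.7 to 35.9) in 12.1% and TNFSF10 at 21.3 CPM (19.6 to 23.0) in 8.06%. The lowest were TNF at 6.04 CPM (5.20 to 6.99), TNFSF14 at 5.78 CPM (4.95 to 6.70) and FASLG at 4.95 CPM (4.19 to 5.81), which were found in 1.49%, 2.26% and 2.02% of cells, and whose intervals overlap. Without 94 cells that carried B cell genes, described below, TNF was the lowest of these 3 at 3.36 CPM (2.73 to 4.10), beside 4.98 CPM (4.20 to 5.86) for FASLG and 5.91 CPM (5.06 to 6.86) for TNFSF14. Below LTB, most cells with a ligand held a single molecule of it, from 78.9% of TNF+ cells to 99.3% of FASLG+ cells. The highest value in a cell was 12 UMIs for TNF and 2 to 6 UMIs for the others. After thinning, in which each of the 6935 cells with enough UMIs was redrawn to 2000 UMIs, LTB was present in 61.9% of cells, CD40LG in 9.99%, TNFSF8 in 5.94%, TNFSF10 in 3.75%, TNFSF14 in 1.12%, FASLG in 1.11% and TNF in 0.822%. UMIs count molecules, so these levels were not divided by transcript length.

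As a rough measure of free RNA, the same genes were read in 86 cells (median 4121.5 UMIs). These had no CD3 gene UMIs but 3 or more UMIs over 5 B cell genes. Because droplets with CD3 RNA were left out, free T cell RNA may be undercounted there, and these cells cannot bound it from above. CD40LG, FASLG, TNFSF14 and TNFSF10 had 0 UMIs there, with an upper binomial limit of 4.20% of these cells. This limit lies below the share of CD3E+ cells for CD40LG and TNFSF10, but not for FASLG and TNFSF14. LTB, which B cells are known to express, had 580 CPM (507 to 660) in these cells and a UMI in 75.6% of them, against 70.4% of CD3E+ cells, so no background share was set for it either. TNFSF8 had 30.3 CPM (15.6 to 52.8) there and a UMI in 12.8% of cells, no lower than the 12.1% of CD3E+ cells, so these cells set no background for it. Its level in CD3E+ cells with GZMB and CX3CR1 was below theirs, at 6.62 CPM (4.36 to 9.63). TNF was higher there than in CD3E+ cells, at 103 CPM (74.2 to 140) and in 16.3% of cells.

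The 8 marker groups of CD3E+ cells were formed by at least 1 raw UMI of a marker gene. CCR7, the lymph node homing receptor of naive T cells, gave 2163 cells, GZMB, the granzyme of cytotoxic cells, 3273, and CX3CR1, a chemokine receptor of cytotoxic effector cells, 1269. CCR6, found on Th17 cells, gave 557 cells, CCR9, a gut homing receptor, 479, CXCL13, a chemokine made by follicular helper T cells, 73, FOXP3, the regulatory T cell factor, 162, and TRAV10, a T cell receptor segment, 247. The groups overlap, and 1242 of the CX3CR1+ cells carried another of the markers, 1232 of them GZMB. Median depth ran from 3172 UMIs in CXCL13+ to 4937 in CCR6+ cells, so thinned shares stand beside the levels.

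Other genes known to mark these cells ran with the groups. LEF1 was 196 CPM in CCR7+ and 57.7 CPM in other cells, PRF1 145 CPM in GZMB+ and 19.5 in other cells, IL23R 10.5 CPM in CCR6+ and 1.37 in other cells, and IL2RA 108 CPM in FOXP3+ and 8.74 in other cells. ZBTB16 stood at 85.8 CPM in TRAV10+ against 5.93 CPM in other cells. CXCL13+ cells had 258 CPM of PDCD1 against 128 CPM, and 11 UMIs of CXCR5. GZMA, a granzyme usually abundant in cytotoxic cells, had 34 UMIs in GZMB+ cells. Genes of other cell types were present. The 4 NK cell genes summed to 73.5 CPM in CD3E+ cells and ran from 9.69 CPM in CXCL13+ to 164 CPM in CX3CR1+ cells, where NCAM1 and NCR1 were at 0. The 5 B cell genes summed to 72.0 CPM and ran from 29.1 CPM in CXCL13+ to 155 CPM in CCR6+ cells. Red blood cell genes summed to 239 CPM, from 7209 UMIs in 883 cells, and ran from 6.46 CPM in CXCL13+ to 124 CPM in CX3CR1+ cells, with ALAS2 at 0. GZMB+ cells were 798 of these 883 cells but held only 1194 of the UMIs, so most of the UMIs lay in a few cells without GZMB. The 4 monocyte genes summed to 2.34 to 6.46 CPM across the groups, with VCAN at 0 in all of them, the 3 platelet genes to 0 to 3.23 CPM with PPBP at 0, and IRF8 alone of 3 plasmacytoid dendritic cell genes was detected.

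GZMB+ cells carried less LTB and more CD40LG than other CD3E+ cells, though LTB was still the higher of these 2 ligands. LTB was 378 CPM (368 to 389) in GZMB+ and 1385 CPM (1368 to 1403) in other CD3E+ cells, and after thinning 29.8% against 87.9% of cells had a UMI. The log2 ratio of GZMB+ to other cells was -1.87 (-1.92 to -1.83). TNFSF8 was 13.7 against 48.2 CPM, a log2 ratio of -1.81 (-2.06 to -1.57), and TNFSF10 9.36 against 29.8 CPM, a log2 ratio of -1.67 (-1.97 to -1.38). CD40LG ran the other way, with 69.4 CPM (64.8 to 74.1) in GZMB+ and 40.8 CPM (37.8 to 43.9) in other cells, a log2 ratio of 0.77 (0.62 to 0.91). Its thinned share was 12.4% against 8.08%. FASLG had 131 of its 149 UMIs in GZMB+ cells, 10.4 against 1.03 CPM, with a log2 ratio of 3.34 (2.62 to 4.14). TNFSF14 had 139 of 174 UMIs there, 11 against 2.0 CPM, and a ratio of 2.46 (1.92 to 3.04).

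With 1 sample, a ligand was called when CPM + 10 differed at least 2-fold, a measure that understates the fold of low genes. By this rule LTB, TNFSF8 and TNFSF10 were lower in GZMB+ cells, 3 of the 7 ligands against 0.908% of 10017 genes with at least 50 UMIs, and 0 ligands were higher against 2.11% of genes. FASLG and TNFSF14, at 0.89 and 0.81 on this scale, did not reach the fold. The 7 ligands had a median of 0.29 on the log2 scale and all genes 0.11. The 4 NK cell genes stood at 158 CPM in the same GZMB+ cells with NCAM1 at 0, and their part in these differences was not tested.

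CX3CR1+ cells showed the same order, but 1232 of these 1269 cells were also GZMB+, so they are nearly all a part of the group above. LTB was 306 against 1099 CPM (log2 ratio -1.85, -1.92 to -1.77) and TNFSF8 11.1 against 38.4 CPM (-1.79, -2.20 to -1.40). These 2 were past the fold, where 0.659% of genes were lower, and 0 were higher, where 0.978% of genes were. TNFSF10 was 8.0 against 24.0 CPM (-1.58, -2.08 to -1.13) and reached -0.92 on the scale of CPM + 10. CD40LG was 75.7 against 48.0 CPM (0.66, 0.49 to 0.82), and FASLG was 12.7 against 3.36 CPM (1.92, 1.43 to 2.40).

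**Figure D1:**
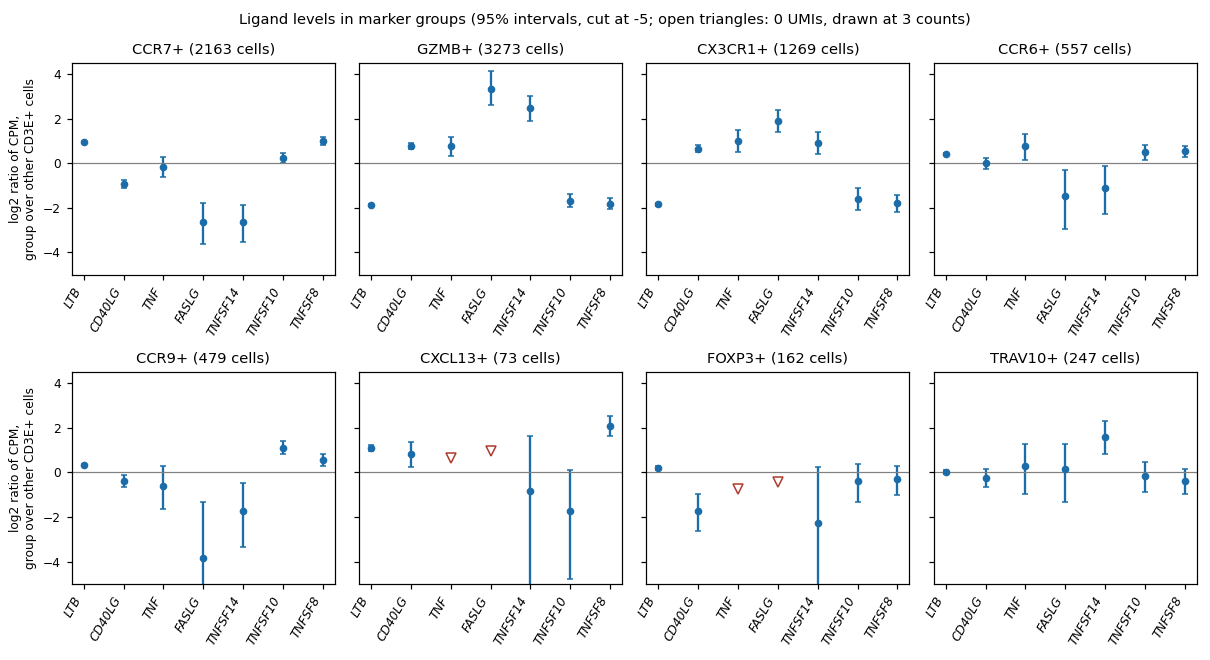
Log2 ratio of CPM of each ligand (x axis) in cells with a UMI of a marker over other CD3E+ cells, for the 8 marker groups, with 95% intervals for counting error, cut at the lower end of the axis. Open triangles stand for 0 UMIs in the group, drawn at 3 counts as an upper limit. LTB, TNFSF10 and TNFSF8 lie below 0 in GZMB+ and CX3CR1+ cells, while CD40LG, FASLG and TNFSF14 lie above it.

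The level of LTB was lower with each step in the number of GZMB UMIs. It was 1385 CPM in the 4038 cells without GZMB, 989 with 1 UMI (321 cells), 466 with 2 to 4, 366 with 5 to 9 and 249 CPM (238 to 262) in the 1655 cells with 10 or more. CD40LG over the same steps was 40.8, 46.2, 65.0, 69.7 and 74.6 CPM (68.2 to 81.4 in the last). The median depth was 4047, 3446, 3229, 3148 and 3416 UMIs over these steps. After thinning to equal depth, LTB was present in 87.9%, 71.1%, 40.7%, 27.7% and 20.5% of cells, and CD40LG in 8.08%, 8.45%, 10.8%, 11.7% and 13.8%. TNFSF8 was 48.2 CPM without GZMB, 24.7 with 1 UMI and 10.7 to 14.4 in the higher steps. FASLG stood at 1.03 CPM without GZMB and at 8.53 to 11.6 CPM in all steps with GZMB, with overlapping intervals among the latter. Thus LTB differed further at each step within the GZMB+ cells, and FASLG did not beyond its interval. CD40LG did not differ beyond its interval among the steps with 2 or more GZMB UMIs. With 1 GZMB UMI its level lay below that of the last step. The thinned shares of these 2 steps had overlapping intervals, 5.49 to 12.3% and 12.1 to 15.6%. CCR7 was 144 CPM with 1 GZMB UMI, against 219 CPM without GZMB and 27.3 to 36.7 CPM in the higher steps. Whether the 321 cells with 1 UMI are a mix of cells was not tested.

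**Figure D2:**
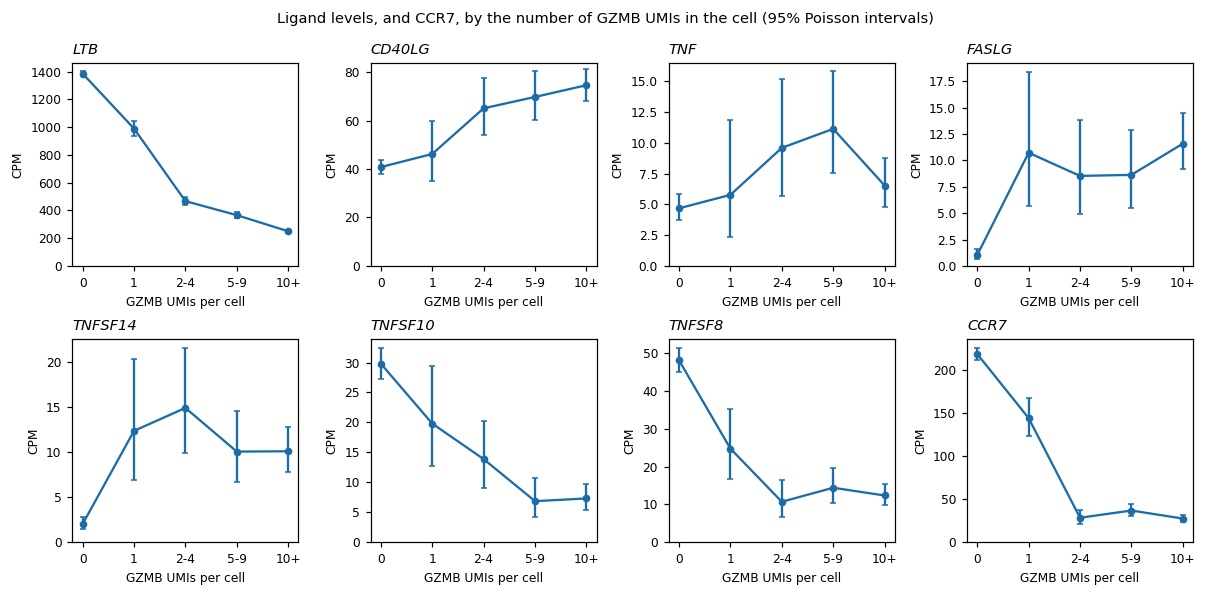
CPM of the 7 ligands and of CCR7 (y axis) in CD3E+ cells with 0, 1, 2 to 4, 5 to 9 and 10 or more GZMB UMIs (x axis), with 95% Poisson intervals. LTB goes from 1385 to 249 CPM and CD40LG from 40.8 to 74.6 CPM, while FASLG stands at 1.03 CPM without GZMB and at 8.53 CPM or more with it.

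In CCR7+ cells LTB and TNFSF8 were higher and CD40LG, FASLG and TNFSF14 lower than in other cells. LTB was 1400 CPM (1378 to 1423) against 725 CPM in other cells (log2 ratio 0.95, 0.92 to 0.98), and 97.7% of CCR7+ cells had a UMI. TNFSF8 was 49.8 against 25 CPM (0.99, 0.81 to 1.17). CD40LG was 33.4 against 63.3 CPM (-0.92, -1.10 to -0.75). FASLG had 12 UMIs in these cells and TNFSF14 14, with log2 ratios of -2.64 (-3.63 to -1.79) and -2.65 (-3.55 to -1.86). None of the 7 passed the fold on CPM + 10, where 0.359% of genes were higher and 1.23% lower. GZMB+ cells made up 12.3% of CCR7+ and 44.8% of all CD3E+ cells. On CPM + 10 the log2 folds of LTB, TNFSF8, CD40LG, FASLG and TNFSF14 were 0.94, 0.77, -0.76, -0.61 and -0.69. In cells with CCR7 only against cells with no marker they were smaller, at 0.25, 0.29, -0.44, -0.25 and -0.32. Among cells with 1, 2, or 3 or more CCR7 UMIs LTB was 1381, 1427 and 1407 CPM, with overlapping intervals.

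Cells with exactly 1 of the markers, with GZMB and CX3CR1 together, with another combination, or with none make 11 groups that share no cell. Leaving aside the other combinations and the groups of under 100 cells, 6 groups were ordered by level, and LTB was highest in cells with CCR7 only (1551 CPM, 1400 cells). It was followed by CCR6 only (1324) and no marker (1304), which did not differ beyond counting error, then CCR9 only (1114), GZMB only (283) and GZMB with CX3CR1 (171). Each other step in that order exceeded counting error. CD40LG was highest with GZMB and CX3CR1 (81.4 CPM), GZMB only (72.2) and CCR6 only (65.4). It was lower with no marker (46.8), CCR9 only (33.5) and CCR7 only (31.8). Between neighbours in this order, only the step from CCR6 only to no marker exceeded counting error. The intervals of no marker (41.4 to 52.7) and CCR7 only (27.5 to 36.5) do not overlap. FASLG was 14.2 CPM with GZMB and CX3CR1, 9.70 with GZMB only, 2.06 with no marker and 0.162 CPM (1 UMI) with CCR7 only. TNFSF14 stood at 13.3 CPM with GZMB only and 9.56 with GZMB and CX3CR1, again not separable. TNFSF10 was 43.0 CPM (30.1 to 59.6) with CCR9 only, 35.8 with no marker, 26.7 with CCR6 only and 23.0 CPM (19.4 to 27.1) with CCR7 only. Neighbours in this order did not differ beyond counting error, but the intervals of CCR9 only and of no marker (31.1 to 41.0) do not overlap that of CCR7 only. It was 7.79 and 6.38 CPM in the GZMB groups. TNFSF8 lay between 42.4 and 53.8 CPM in the 4 groups without GZMB, with no step between neighbours beyond counting error although the intervals of CCR7 only (48.2 to 59.9) and no marker (37.2 to 48.0) do not overlap, and at 9.70 and 6.62 CPM in the GZMB groups. The order of TNF began with CCR6 only (14.9 CPM, 15 UMIs), and cells with B cell genes bear on it as given below.

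**Figure D3:**
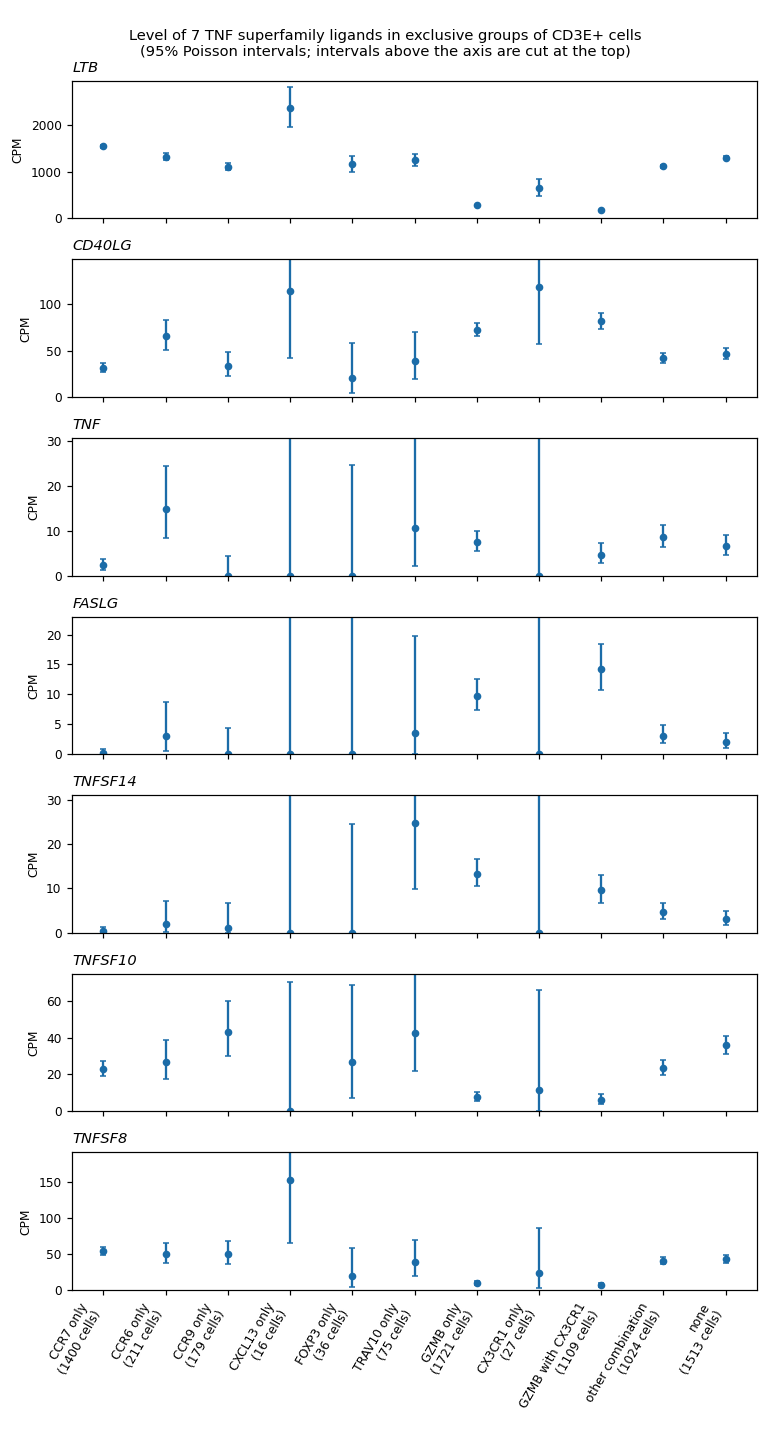
CPM of each ligand (y axis, 1 panel per ligand) in 11 groups of CD3E+ cells that share no cell (x axis, with the number of cells), with 95% Poisson intervals cut at the top of the axis. LTB stands at 283 and 171 CPM in the GZMB groups and at 1114 CPM or more in the other groups of over 100 cells, and the groups of 16, 27 and 36 cells have wide intervals.

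The smaller groups had patterns of their own. In CXCL13+ cells LTB was 2034 CPM (1879 to 2200) against 953 CPM, a log2 ratio of 1.09 (0.98 to 1.21), and TNFSF8 was 139 CPM (100 to 187) against 32.7 CPM, a ratio of 2.09 (1.61 to 2.53). TNFSF8 was present in 39.7% of these 73 cells, or 29.4% after thinning, against 11.9% and 5.71% of other cells. These 2 of 7 ligands were higher past the fold, against 1.81% of genes, and 0 were lower, against 2.15%. The other cells were richer in GZMB+ cells, which are low in both ligands. GZMB+ cells made up 13.7% of CXCL13+ and 44.8% of all CD3E+ cells. In the 16 cells with CXCL13 as the only marker, TNFSF8 had 8 UMIs and LTB 124. CD40LG was 93.7 CPM (62.7 to 134) against 52.3 CPM, a log2 ratio of 0.84 (0.26 to 1.37). TNF and FASLG had 0 UMIs, but 3 counts there already come to 9.69 CPM, so a lower level was not detectable at this depth.

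CD40LG was lowest in FOXP3+ cells. It had 13 UMIs in 162 cells, 16.2 CPM (8.60 to 27.6) against 53.7 CPM, a log2 ratio of -1.73 (-2.65 to -0.96), and a thinned share of 3.70% against 10.1%. This was the only ligand past the fold there, against 1.36% of genes lower, with 0 higher against 0.649%. CCR7+ cells, also low in CD40LG, made up 71.0% of FOXP3+ and 29.6% of all CD3E+ cells. TNF and FASLG had 0 UMIs. With 3 counts in place of 0, TNF was at least 1.67-fold and FASLG at least 1.36-fold lower than in other cells. Without the cells with B cell genes, described below, the TNF bound was lost, since the upper limit of 4.67 CPM in FOXP3+ cells lay above the 3.46 CPM of other cells. The FASLG bound compares with cells richer in GZMB, since GZMB+ cells made up 11.1% of FOXP3+ and 44.8% of all CD3E+ cells. FASLG had the same upper limit of 4.67 CPM, above its 1.03 CPM (0.61 to 1.62) in cells without GZMB. Against those cells a lower level was not detectable. LTB at 1092 CPM and TNFSF8 at 27.3 CPM lay near the other cells, with log2 ratios of 0.19 and -0.31.

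TNFSF10 was higher in CCR9+ cells at 41.7 CPM (34.3 to 50.3) against 19.3 CPM, a log2 ratio of 1.11 (0.81 to 1.41) and a thinned share of 7.84% against 3.46%. On CPM + 10 this was 0.82, and 0 of 7 ligands passed the fold, where 0.210% of genes were higher and 0.908% lower. GZMB+ cells, low in TNFSF10, made up 12.5% of CCR9+ and 44.8% of all CD3E+ cells. Cells with CCR9 only (43.0 CPM) did not differ beyond counting error from cells with no marker (35.8 CPM), with a log2 ratio of 0.26 (-0.29 to 0.78). FASLG had 1 UMI in CCR9+ cells, a log2 ratio of -3.84 (-9.16 to -1.34). CCR6+ cells had no ligand past the fold, against 0.359% higher and 0.429% lower, and CD40LG was level at 53.0 against 52.7 CPM (log2 ratio 0.01, -0.23 to 0.24). In TRAV10+ cells TNFSF14 was 16.3 CPM (9.64 to 25.7) against 5.38 CPM, a log2 ratio of 1.60 (0.80 to 2.30) from 18 UMIs. It reached 0.77 on CPM + 10, and 0 of 7 ligands passed the fold there, against 0.220% higher and 0.369% lower. LTB and FASLG in TRAV10+ cells did not differ from other cells beyond counting error.

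Over all 56 pairs of ligand and group, 8 passed the fold, 6 lower and 2 higher. In the single groups 0.369% to 2.15% of genes were lower and 0.210% to 2.11% higher. LTB in GZMB+, LTB in CX3CR1+ and TNFSF8 in CXCL13+ cells passed the fold under each of 11 other settings. The first 2 are not separate observations, since 97.1% of CX3CR1+ cells were also GZMB+. LTB in CXCL13+ cells was at 0.85 in the exclusive groups, and CD40LG in FOXP3+ cells at -0.92 there.

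TNF was found to a large part in cells that also carried B cell genes. Of the 7311 CD3E+ cells, 94 (1.29%) had at least 3 UMIs over 5 B cell genes such as MS4A1 and CD79A, with a median of 9641 UMIs per cell. These 94 cells had 84 of the 182 TNF UMIs, 46.2%. TNF was 85.5 CPM (68.2 to 106) in them and 3.36 CPM (2.73 to 4.10) in the other 7217. Cells with a TNF UMI numbered 109 with the 94 cells and 86 without them, so most of the 94 had none. The Poisson interval takes UMIs as independent and is too narrow where few cells hold them. Of the other 6 ligands, the 94 cells held 1.15% to 4.04% of the UMIs. CD40LG was lower in them, at 20.4 CPM (12.4 to 31.4) against 53.8 CPM. The median of all CD3E+ cells was 3655 UMIs. Of the 94 cells, 3 were among the highest 5% of doublet scores, but the scoring failed on these data, as given below, so it cannot decide here. Whether these are droplets with 2 cells was not tested.

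The TNF level of several groups rested on these cells. In CCR7+ cells, which held 57 of the 94, TNF was 5.63 CPM with them and 1.31 CPM without, and its log2 ratio to other cells went from -0.15 (-0.63 to 0.30) to -1.76 (-2.73 to -0.91). In CCR6+ cells the ratio went from 0.76 to -0.28 (-1.54 to 0.76), and in CX3CR1+ cells from 1.0 to 0.41 (-0.36 to 1.12). In GZMB+ cells it was 0.76 (0.32 to 1.20) with them and 0.59 (-0.01 to 1.20) without. All 11 TNF UMIs of CCR9+ cells lay in such cells. TRAV10+ cells kept 7 of 8 TNF UMIs, 6.60 CPM (2.65 to 13.6).

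**Figure D4:**
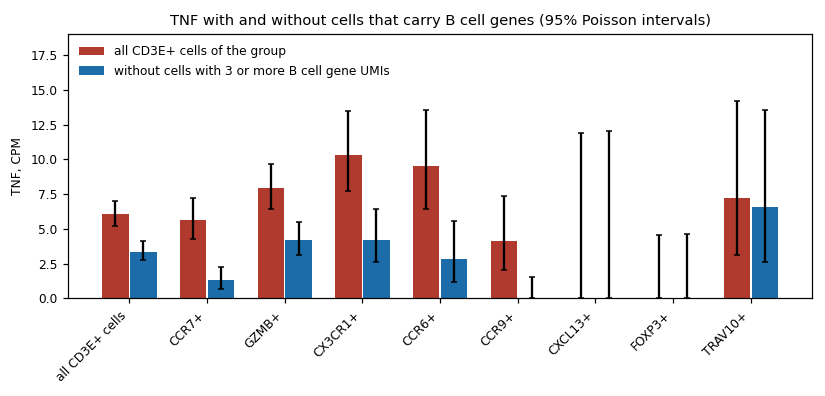
TNF level in CPM (y axis, bars from 0) in all CD3E+ cells and in 8 marker groups (x axis), with all cells of the group (red) and without the cells that had at least 3 UMIs of B cell genes (blue), with 95% Poisson intervals. CCR7+ cells go from 5.63 to 1.31 CPM and CCR9+ cells from 4.14 CPM to 0 UMIs.

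Most cells had a UMI of LTB alone or of no ligand besides it. Of the 7311 cells, 20.9% had none of the 7 ligands, 49.8% had 1, 23.8% had 2 and 5.42% had 3 or more. Leaving LTB out, 63.1% of cells had none of the other 6 and 6.35% had at least 2. After thinning these were 79.0% and 1.63%.

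Pairs of ligands were compared in the thinned cells as the number of cells with both beside the number expected if they were independent. LTB and FASLG were together in 24 cells against 47.7 expected, and LTB was present in 31.2% (21.1 to 42.7) of FASLG+ and 62.3% of other cells. LTB and CD40LG were together in 357 cells against 429, with LTB in 51.5% (47.7 to 55.3) of CD40LG+ cells. LTB met TNFSF8 in 358 cells against 255 expected and TNFSF10 in 214 against 161. TNFSF10 and TNFSF8, both of them low in cytotoxic cells, were together in 24 cells against 15.4, and TNFSF10 was in 5.83% (3.77 to 8.54) of TNFSF8+ and 3.62% (3.18 to 4.10) of other cells, with overlapping intervals. CD40LG met FASLG in 12 cells against 7.69 and TNFSF14 in 13 against 7.79, with overlapping intervals for the shares in both pairs.

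The pairs were also read within cells with and without the cytotoxic markers. In the 3806 thinned cells with neither GZMB nor CX3CR1, LTB and CD40LG were together in 264 cells against 268 expected, LTB and TNFSF8 in 327 against 317, LTB and TNFSF10 in 187 against 180 and TNFSF10 and TNFSF8 in 21 against 19.4. In these cells 11 of the 21 pairs were still unequal by a factor of 1.5, each with fewer than 3 joint cells expected. Within the 3099 GZMB+ cells LTB was present in 58.8% (44.2 to 72.4) of TNFSF8+ and 29.4% (27.8 to 31.0) of other cells, and in 23.0% (18.9 to 27.5) of CD40LG+ and 30.8% (29.1 to 32.6) of other cells. Of all 21 pairs, 10 had shares unequal by a factor of 1.5, but only 12 pairs had at least 5 joint cells expected, and 5 of these were unequal. The share compared was that of the ligand listed first, which was LTB in each of its pairs. With LTB in 61.9% of thinned cells, a ratio of 1.5 upward was barely reachable. LTB with TNFSF8 and with TNFSF10 thus counted as equal, at ratios of 1.44 and 1.35. The counts therefore depend on the order of the list and cannot be read for the LTB pairs.

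The antibody tags gave a readout of surface protein that was not used to form the marker groups, although the cells had been isolated by both proteins. Every CD3E+ cell had at least 24 UMIs of the CD4 tag and 12 of the CD8 tag. CD3E+ cells were divided into quartiles by CD4 tag UMIs (24 to 289, 290 to 386, 387 to 500 and 501 or more). LTB was 528, 864, 1124 and 1150 CPM over these quartiles, a log2 ratio of highest to lowest of 1.12 (1.06 to 1.18). TNFSF8 was 18.6, 31.2, 38.6 and 40.2 CPM (ratio 1.11, 0.80 to 1.43), and TNFSF10 had a ratio of 1.19 (0.80 to 1.59). CD40LG was 60, 55.8, 50.7 and 48.2 CPM (-0.32, -0.52 to -0.11), and FASLG (-1.68) and TNFSF14 (-1.37) were lower with more tag. LTB alone was past the fold, against 0.329% of genes higher, with 0 lower against 0.599%. The share of GZMB+ cells was 68.8%, 50.5%, 29.5% and 30.5% over the same quartiles.

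The relation differed between cells with and without GZMB. In GZMB+ cells LTB was 126, 237, 411 and 753 CPM over the CD4 tag quartiles (log2 ratio 2.58, 2.44 to 2.73), and its thinned share was 15.9% in the lowest and 59.8% in the highest. TNFSF8 was 3.72 CPM in the lowest and 28.0 CPM in the highest quartile of GZMB+ cells (2.91, 2.10 to 3.83). Both were past the fold, where 1.01% of genes were higher, and 0 ligands were lower, where 0.250% of genes were. The thinned share of TNFSF8 was 0.71% and 3.59% in these quartiles. CD40LG was 76.2 and 53.4 CPM in these 2 quartiles (-0.51, -0.79 to -0.24). In cells without GZMB, LTB was 1335 and 1358 CPM (0.03, -0.04 to 0.09), TNFSF8 48.4 and 46.6 CPM (-0.06, -0.40 to 0.30) and CD40LG 27.7 and 45.5 CPM (0.72, 0.29 to 1.17) in the lowest and highest quartile. No ligand was past the fold there, where 0.0998% of genes were higher and 0.240% lower. The intervals of the LTB and CD40LG ratios do not overlap between the cells with and without GZMB, and with 1 animal the difference was not tested. The median depth of GZMB+ cells was 3011 UMIs in the lowest and 5990 in the highest quartile, and its part in the unthinned values was not tested. Thinning makes depth equal but does not remove droplets with 2 cells. Their part in the thinned and unthinned values was not tested.

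**Figure D5:**
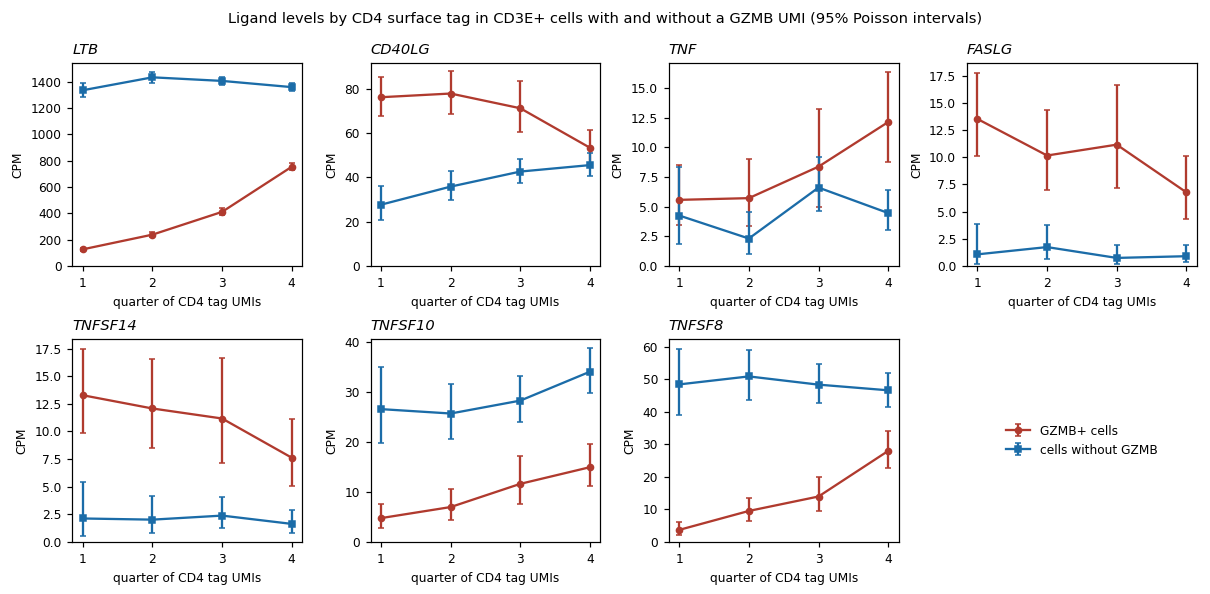
CPM of each ligand (y axis) by quartile of CD4 tag UMIs (x axis, lowest to highest) in CD3E+ cells with a GZMB UMI (red) and without (blue), with 95% Poisson intervals. LTB goes from 126 to 753 CPM in GZMB+ cells and stands at 1335 and 1358 CPM at the ends in the others, and CD40LG goes from 76.2 to 53.4 CPM in GZMB+ cells and from 27.7 to 45.5 CPM in the others.

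Over quartiles of the CD8 tag LTB was 1029, 795, 912 and 1077 CPM, lowest in the second quartile and without a steady direction. The log2 ratio of highest to lowest was 0.07 (0.02 to 0.11) for LTB and -0.16 (-0.37 to 0.06) for CD40LG, and 0 ligands were past the fold, where 0.230% of genes were higher and 0.0699% lower. Within GZMB+ cells LTB had a ratio of 1.02 (0.89 to 1.15), with 298, 246, 291 and 605 CPM over the quartiles. This was 0.9985 on the scale of CPM + 10 and just short of the fold, and 0 ligands passed it, where 0.539% of genes were higher and 0.0799% lower. In cells without GZMB 0 passed it as well, where 0.210% of genes were higher and 0.0898% lower. TNFSF8 in GZMB+ cells was 10.2 CPM in the lowest and 22.6 CPM in the highest CD8 tag quartile, a ratio of 1.14 (0.45 to 1.91). After thinning its shares were 1.55% (0.71 to 2.93) and 1.95% (1.07 to 3.25), so no difference was seen at equal depth. The median depth of these cells was 3143 UMIs in the lowest and 4159 in the highest quartile. TNF in all CD3E+ cells had a ratio of 1.77 (1.06 to 2.56), and 0.44 (-0.48 to 1.41) without the cells with B cell genes. In GZMB+ cells the ratio of TNF was 1.82 (0.80 to 3.02) with those cells included.

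The partners of the ligands were unevenly present in these cells. LTBR, the receptor of LTB, had 3 UMIs in all CD3E+ cells. CD40 had 90 UMIs in CD3E+ cells, 2.99 CPM, against 199 CPM in the 86 cells with B cell genes, and 0 of 693 thinned CD40LG+ cells had a CD40 UMI (upper binomial limit 0.531%). TNFRSF1B, a TNF receptor of T cells, was 189 CPM in 45.4% of cells, and TNFRSF1A 11.9 CPM. TNFRSF10A, a receptor of TNFSF10, was 51.2 CPM, and TNFRSF14, a receptor of TNFSF14, 39.3 CPM. LTA, with which LTB forms its heteromer, had 172 UMIs, 5.71 CPM, and a UMI in 1.09% (0.80 to 1.45) of thinned LTB+ and 0.834% (0.52 to 1.26) of other cells.

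FASLG+ cells more often held other cytotoxic genes. PRF1, perforin, had a UMI in 27.3% (17.7 to 38.6) of 77 thinned FASLG+ cells and 12.8% (12.0 to 13.6) of other cells, and CX3CR1 in 29.9% (20 to 41.4) against 11.2%. Of these 77 cells 69 were GZMB+, and the shares within GZMB+ cells were not compared. TNFRSF14 was found in 7.69% (2.88 to 16.0) of TNFSF14+ cells and in 7.85% of others, and TNFRSF10A in 10.8% (7.28 to 15.2) of TNFSF10+ cells and 9.32% of others, so neither receptor was detectably tied to its ligand. FAS, CD27, TNFSF13, TNFRSF10C and TNFRSF10D were not analysed here, and TNFSF15, TNFSF18, TNFRSF8 and TNFRSF11B were dropped by the filter on genes.

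The wider pathway was read from fixed lists of 11 other ligands, 25 receptors and 20 signalling genes, of which 5, 11 and 20 had at least 50 UMIs. In GZMB+ cells TNFSF13B (BAFF), a B cell survival factor, was lower at 5.55 against 25.7 CPM. The receptors TNFRSF1B (311 against 101 CPM) and TNFRSF1A (20.9 against 5.37 CPM) were higher, and TNFRSF4 (OX40, 6.82 against 34 CPM) and TNFRSF25 (23.0 against 62.3 CPM) lower. Of the signalling genes only BIRC3, an inhibitor of apoptosis, passed the fold, at 17.5 against 46.7 CPM. Of all genes, 2.11% were higher and 0.908% lower past the fold in GZMB+ cells. The median log2 fold in GZMB+ cells was 0.32 for other ligands, -0.01 for receptors and 0.01 for signalling genes, beside 0.11 for all genes. CX3CR1+ cells had 1 of 5 other ligands lower (TNFSF13B) and 1 of 11 receptors lower (TNFRSF4), with no signalling gene past the fold. Of all genes, 0.659% were lower and 0.978% higher there.

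In the other groups few of these genes passed, beside the shares of all genes given for each group above. TNFRSF1B was lower in CCR7+ (99.9 against 237 CPM), CCR9+ (84.2 against 199 CPM) and CXCL13+ cells (74.3 against 190 CPM). CCR6+ cells had more TNFSF13B (48.9 against 13.6 CPM) and TNFRSF25 (102 against 39.3 CPM). CXCL13+ cells had more TNFRSF4 (71.0 against 22.1 CPM), TNFRSF10A (132 against 50.4 CPM) and BTLA (29.1 against 5.44 CPM, 9 UMIs), and less TNFAIP3, an inhibitor of NF-kappaB signalling (129 against 338 CPM). In FOXP3+ and TRAV10+ cells 0 of the 36 other ligands, receptors and signalling genes passed the fold. Of all genes, 0.649% and 0.220% were higher in these 2 groups and 1.36% and 0.369% lower. Of the CD4 tag quartiles, the highest had more TNFRSF4 past the fold.

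For each ligand, the genes most like it across the 11 exclusive groups were named by Pearson's r, among genes with at least 200 UMIs. The r was taken on the log2 of CPM + 10. These r values are descriptions over groups that share a library. They weigh groups of 16 and 27 cells as much as the group of 1721 cells. LTB was most like GPR183, a chemotactic receptor of lymphocytes (r = 0.987), and DYRK2 (0.967). GPR183 was 396 CPM with CCR7 only, 457 CPM with CXCL13 only and 46.8 CPM with GZMB and CX3CR1. CD40LG was most like PSMD2 (0.987) and HDAC10 (0.965), TNF like PLXNC1 (0.942), FASLG like AGFG2 (0.979) and SDHC (0.973), and TNFSF14 like ACTN3 (0.949) and NMI (0.922). TNFSF10 was most like CUX1 (0.951) and RPL37 (0.924), and TNFSF8 like APP (0.961) and DNAJC3 (0.954). Over the 6 largest groups alone GPR183 kept r = 0.990 with LTB, with 6 genes above it, while 482 genes were above SDHC for FASLG.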

How the data were processed

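Raw UMI counts per gene or antibody tag and cell barcode were deposited. For the counts that the authors made, the submitters' processing notes name Mmul_10, STAR 2.5.1b, Cell Ranger 3.1.0 and Seurat 3.1.3, while the sources used here do not give the annotation release. They hold 35432 genes, 7923 barcodes and 32297887 gene UMIs, and 0 columns of samples were left unused.

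The study's filters were applied. Genes needed a UMI in at least 3 barcodes with 200 or more genes, and barcodes 200 to 4000 genes and at most 20% mitochondrial UMIs. This left 7601 cells and 14459 genes. The 13 named mitochondrial genes and 2 features without a symbol among them were counted as mitochondrial, a choice made with the resulting number of cells known. Features without a symbol took 1 from a table of gene names where it had one, which named 467 kept genes. Scrublet called 0 doublets among the 7601 cells at the threshold it chose and therefore failed on these data. The main values include all cells, and an alternative left out the highest 5% of scores.

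A level is the summed UMIs of a gene in a group of cells per 1000000 UMIs of that group (CPM), with an exact Poisson interval. Shares of cells have exact binomial (Clopper-Pearson) intervals, and the interval of a log2 ratio comes from the exact binomial interval of the share of both counts that lies in 1 group, all at 95%. UMIs of 1 animal are not replicates, so intervals cover counting error only. Where a group had 0 UMIs, 3 counts gave the bound. A ligand was called past the fold at a 2-fold ratio of CPM + 10, among 10017 genes with at least 50 UMIs. Shares were also given after thinning each cell to 2000 UMIs (seed 1), which drops 376 CD3E+ cells. No comparison was tested.

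The text names the 7 ligands, 11 other ligands, 25 receptors and 20 signalling genes of the family, the 8 markers, markers of T cell and other cell types, and for each ligand the 2 genes most like it across groups. A few genes of these lists are not reported here. The members and lists were chosen with earlier results of these data known. The alternatives leaving out cells with B cell genes, restricting the pairs, dividing the tag quartiles by GZMB and using only the 6 largest groups were chosen after seeing the data. Promoter windows came from the RefSeq annotation of Mmul_10. The interval of the log2 ratio was tested on simulated Poisson counts, which hold no added spread between cells. The thinning step was checked on the real counts. Computations used pandas 2.3.3, numpy 2.4.6, scanpy 1.11.5, scipy 1.17.1 and matplotlib 3.10.9 under Python 3.11.15.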

Additional observations from a re-analysis of the deposited data

How the results depend on the processing

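No paired analysis was possible because the RNA and tag libraries come from the same cells of 1 animal and no test was made. Of the 56 folds of a ligand in a marker group, 2 were past 2-fold higher and 6 lower. With a pseudocount of 1 CPM these were 7 and 18, with means over cells 4 were higher, after thinning 5 were higher, and with a pseudocount of 50 CPM 2 were lower. The pseudocount acts by construction on the low genes, and the added calls at 1 CPM include FASLG and TNFSF14 in GZMB+ cells (log2 folds 2.49 and 2.0). At 50 CPM the folds of TNFSF10 (-0.43) and TNFSF8 (-0.62) in GZMB+, TNFSF8 in CX3CR1+ (-0.53) and CD40LG in FOXP3+ cells (-0.65) were no longer past 2-fold. The other settings, among them at least 2 UMIs of CD3E or of a marker, other mitochondrial filters, exclusive groups and leaving out the highest doublet scores or the cells with B cell genes, kept both counts within 1.5 times. No fold past 2-fold changed direction under the settings tried. Of 21 pairs of ligands, 10 were unequal, but 5 of the 12 pairs with at least 5 joint cells expected. These counts depend on which ligand of a pair was listed first. Over the tag quartiles, 1 of 14 folds was higher and 0 lower, against 4 and 2 with a pseudocount of 1 CPM, 2 higher within GZMB+ cells and 0 higher without GZMB. As means over cells the levels were 922 CPM for LTB, 57.5 for CD40LG, 4.84 for TNF, 6.07 for FASLG and 6.91 for TNFSF14. LTB was 976 CPM with a mitochondrial limit of 10%, and TNF 3.36 CPM without the cells with B cell genes. Depth limits TNF, FASLG and TNFSF14 most, with under 200 UMIs each, and groups of under 100 cells, where 3 counts come to several CPM.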
